A study of Mus musculus with 4 samples.

Results

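The 8 genes described here, Egr1, Egr2, Nr4a1, Ier2, Ier3, Myc, Zfp36 and Btg2, are immediate early genes that lie outside the Fos and Jun (AP-1) family. They were chosen as every probe set of either array type whose single gene symbol is one of these 8 names, which found all 8 genes of 6137 named on the arrays, with 1 probe set each, 8 of 13057 in all. Egr1, Ier2, Myc, Zfp36 and Btg2 had theirs among the 6523 probe sets of the first array type. Egr2, Nr4a1 and Ier3 had theirs among the 6534 of the second type, marked MB in the sample titles.

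Gene expression was measured in an inducible stable cell line made from NIH3T3, immortalised fibroblasts of mouse origin, in which a promoter that tetracycline represses drives wild-type PKR (wtPKR). The control group was grown in DMEM with 5% FCS and 1 µg/ml tetracycline, which keeps the transgene silent. In the other group tetracycline was left out of the medium for 5 h, a step that the labels describe as inducing PKR. Each group was measured as total RNA on 1 array of each of the 2 types, 4 arrays in all, so no value has a replicate, no p-value was computed and the number of arrays limits the precision. PKR is the kinase product of Eif2ak2 that senses double-stranded RNA, and its best known substrate is eIF2 alpha, a factor needed to start translation. The labels do not say whether the line is 1 clone, or whether the 2 arrays of a condition share 1 RNA.

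Immediate early genes are transcribed within minutes of a stimulus without new protein synthesis, because the factors that switch them on are already present in the cell. In fibroblasts serum is the classical stimulus. It acts through the MAP kinase ERK on serum response factor and its ETS partners, which bind the CArG box, and through CREB-type factors, which bind the cAMP response element. Many of the transcripts are short-lived and decline while the stimulus lasts, and several are also induced by cell stress, NF-kB or p53.

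Serum content is stated in the labels for the cells kept in tetracycline but not for the withdrawn ones. They do not say whether the medium of either group was replaced at the time of withdrawal. The groups also differ in the drug itself, and no array is of cells without the transgene. Induction of PKR, absence of tetracycline as such and a change of medium or serum therefore cannot be told apart as the stimulus on these arrays.

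Values are linear intensities as deposited, and a change is the log2 ratio of withdrawn to tetracycline. A probe set was called measured where both intensities exceeded a floor, the 25th percentile of its array type (first type 130, MB type 80). A stricter control floor, set at the 95th percentile of controls for bacterial and yeast RNA, lay at 281.5 and 340.4. Of the 8 genes, 7 were measured, all 7 also above the control floor, and Egr2 was above the floor after withdrawal only. All 7 read higher after withdrawal, with a median log2 change of 0.72 (1.65-fold) and a range of 0.084 to 1.31. Over the 4507 genes measured the median was -0.0037 and 49.6% read higher. The 8 genes were chosen with earlier results of these arrays known, so this contrast is no independent support. The change of 1 gene, Egr1, reached 2-fold, against 5.26% of all genes that were higher by 2-fold, and none of the 7 was lower by 2-fold, against 4.22%. At 1.5-fold there were 5 of 7, against 13.2% of all genes. Over the 3582 genes above the control floor these shares were 2.07% higher by 2-fold, 1.2% lower by 2-fold and 8.88% higher by 1.5-fold.

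The precision of a single change was described in 2 ways. The local spread is the scaled median absolute deviation among changes of the 200 measured probe sets nearest in level on the same array type. The probe set of a measured gene is 1 of its own 200, and counts of changes at least as large include it. Probe noise and true differences both enter the local spread, and it does not replace a replicate. In 651 genes with 2 measured probe sets, the changes differed by a median of 0.36 on the log2 scale and had opposite signs in 42.7%. Since each of the 8 genes has a single probe set, none has this second reading. All 8 probe sets carry the s_at suffix, which in the Affymetrix naming scheme marks sets whose probes are not all unique to 1 sequence. Measured probe sets with this suffix were higher to any extent in 50.8% (first type) and 55.1% (MB type), against 48.9% and 52.5% of all measured there.

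The upstream sequences show which stimulus-response elements lie next to the start sites of these genes. RefSeq windows of 250 bases upstream of annotated transcript starts (build GRCm38.p6) were matched for 5 of the 8 genes, 9 windows in all, 5 of them for Egr2. Egr1, Ier2 and Myc were not matched. Each sequence is printed 5′ to 3′ on the gene's strand and ends just before the start site. Capitals mark matches to the CArG box, to TGACG on either strand (the core of the cAMP response element, also part of its full form TGACGTCA) and to the NF-kB consensus. For Egr2 the window shown is the first of 3 overlapping ones that hold the same elements, chosen after the matches were seen. The windows lie at chr10:67537619-67537868 (+ strand) for Egr2, chr15:101266596-101266845 (+ strand) for Nr4a1, chr1:134079156-134079405 (- strand) for Btg2, chr7:28379229-28379478 (- strand) for Zfp36 and chr17:35821463-35821712 (+ strand) for Ier3.
Egr2: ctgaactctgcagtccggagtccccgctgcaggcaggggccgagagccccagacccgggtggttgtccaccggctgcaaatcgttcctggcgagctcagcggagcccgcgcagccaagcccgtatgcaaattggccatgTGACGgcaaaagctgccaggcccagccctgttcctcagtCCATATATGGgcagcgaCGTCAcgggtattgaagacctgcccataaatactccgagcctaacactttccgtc
Nr4a1: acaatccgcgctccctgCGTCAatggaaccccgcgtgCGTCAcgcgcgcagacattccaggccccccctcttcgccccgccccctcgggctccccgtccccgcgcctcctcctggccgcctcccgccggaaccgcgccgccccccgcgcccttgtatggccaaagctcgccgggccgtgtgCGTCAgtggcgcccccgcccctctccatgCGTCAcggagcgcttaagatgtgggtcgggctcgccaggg
Btg2: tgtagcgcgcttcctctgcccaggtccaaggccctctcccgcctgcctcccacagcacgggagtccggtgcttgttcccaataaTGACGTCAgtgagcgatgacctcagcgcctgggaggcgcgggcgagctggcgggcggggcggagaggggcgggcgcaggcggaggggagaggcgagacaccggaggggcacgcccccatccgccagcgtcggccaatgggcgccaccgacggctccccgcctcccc
Zfp36: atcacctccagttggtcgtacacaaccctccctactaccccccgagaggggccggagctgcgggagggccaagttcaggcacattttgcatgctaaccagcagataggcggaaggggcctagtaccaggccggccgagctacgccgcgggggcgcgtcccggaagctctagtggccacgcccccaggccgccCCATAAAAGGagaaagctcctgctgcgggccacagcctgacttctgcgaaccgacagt
Ier3: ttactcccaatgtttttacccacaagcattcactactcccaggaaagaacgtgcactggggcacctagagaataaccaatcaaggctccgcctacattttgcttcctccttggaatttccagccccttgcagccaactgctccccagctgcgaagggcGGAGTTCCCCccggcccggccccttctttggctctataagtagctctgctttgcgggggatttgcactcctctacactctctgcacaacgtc

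A CArG box was found in 2 of the 5 genes. The Egr2 window shown holds CCATATATGG, which starts 72 bases upstream of the start site, and the Zfp36 window holds CCATAAAAGG, 58 bases upstream. Of the 5 Egr2 windows 4 hold a CArG box, the 3 overlapping ones this box and another one CCTTTTTTGG. Of all 32851 RefSeq windows of this length, 1.47% hold a CArG box, a share per window that is not on the scale of a count per gene. TGACG was found in Egr2 (2 matches in the window shown), Nr4a1 (4 matches, all on the opposite strand) and Btg2 (2 matches, both within a full TGACGTCA). TGACG occurs in 17.8% of all windows and TGACGTCA in 1.55%. The NF-kB consensus was matched in the Ier3 window alone of those printed, as GGAGTTCCCC on the strand shown, and is present in 3.9% of all windows. TGATGCAA, an element bound by ATF4 with C/EBP partners and searched on both strands, was found in 0 of these 5 genes and in 0.791% of all windows. Such matches describe letters in a short window, and elements farther upstream were not searched.

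**Figure D1:**
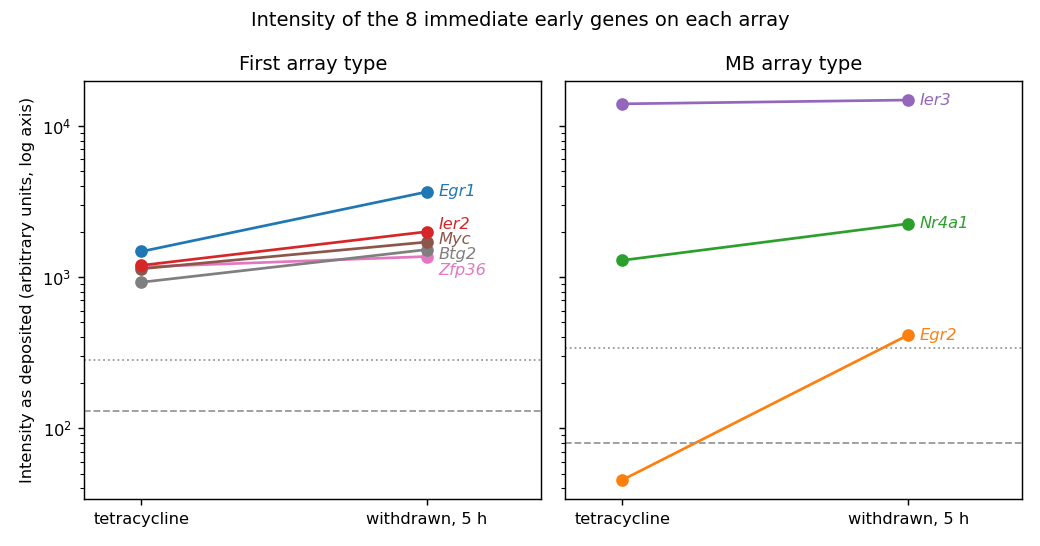
Intensity (arbitrary units, log axis) of each of the 8 genes on the tetracycline array and the withdrawn array of its type, with 1 line per gene, the floor dashed and the control floor dotted. Every line slopes upward, that of Ier3 least (14001.8 to 14841.1), and Egr2 starts below the floor.

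Egr1 encodes a zinc finger transcription factor that ERK signalling switches on through serum response factor. It read 1475.5 with tetracycline and 3665 after withdrawal, a 2.48-fold difference (log2 change 1.31). This was the largest of the 7 changes and exceeded 2 local spreads (0.35 each). On the first array type 98 of 4402 measured probe sets (2.23%) had a change at least as large, and among the 200 nearest in level Egr1 was the only 1. Under the 3 scalings tried and a pseudocount of 100 it stayed between 1.26 and 1.31.

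Egr2, also called Krox20, is a related zinc finger factor best known for its role in myelination. Its probe set was below the floor with tetracycline, at 45.4, and above both floors at 413.1 once tetracycline was withdrawn. The difference is therefore a bound, at least 5.16-fold against the floor and at least 1.21-fold against the control floor. On the MB type 64 of 6534 probe sets (0.979%) went from below the floor to above the control floor upon withdrawal, and 27 showed the opposite pattern. Of these, 23 and 12 were at least as bright as Egr2. The 39 bacterial and yeast controls of this type had a median intensity of 69.7 with tetracycline and 54.2 after withdrawal, and 17 and 14 of them were above the floor. The brightest of them after withdrawal, BioDn 3′, read 263.8 and 1212.8 here, and 447.5 and 222.3 on the first type. The part of background signal in the Egr2 value was not tested.

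Other genes of the EGR group differed in sign. Nab2, a corepressor that EGR factors themselves induce, had 2 probe sets on the first type, which read 1320.3 and 1684 (log2 change 0.35) and 889.2 and 892.6 (0.0055). Its relative Nab1 read 600.3 and 327.3 (-0.88). Wt1, a zinc finger factor that binds similar sites, read 415.7 and 526.4 on 1 probe set (0.34), and 18.2 and 332.8 on the other, which was below the floor with tetracycline.

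Nr4a1 encodes an orphan nuclear receptor, also called Nur77, whose promoter responds to serum, growth factors and cAMP. It read 1290.1 and 2252.9, a 1.75-fold difference (log2 change 0.80), again above 2 local spreads (0.37 each). On the MB type 514 of 4360 measured probe sets (11.8%) had a change at least as large, but only 6 of the 200 nearest in level. Dim probe sets on this type scattered more widely, as the plot of change against level shows. Nr4a2, the family member also present on the arrays, was dim and read 232 and 196.1, below the control floor on both.

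Ier2, a short nuclear protein of the immediate early class, read 1194.1 and 1996.4, a 1.67-fold difference (0.74), which also exceeded 2 local spreads (0.34 each). Of all measured probe sets on its type 8.34% had a change at least as large, and 8 of the 200 nearest in level. Ier3, whose product modulates survival and is a target of NF-kB and p53, stood apart from Ier2. It was bright on both arrays and read 14001.8 and 14841.1, a 1.06-fold difference (0.084) that lay within its local spread of 0.23. Of 200 probe sets at that level 36 had a change at least as large, and probe sets in the top 5% by level on the MB type had a median of -0.12.

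**Figure D2:**
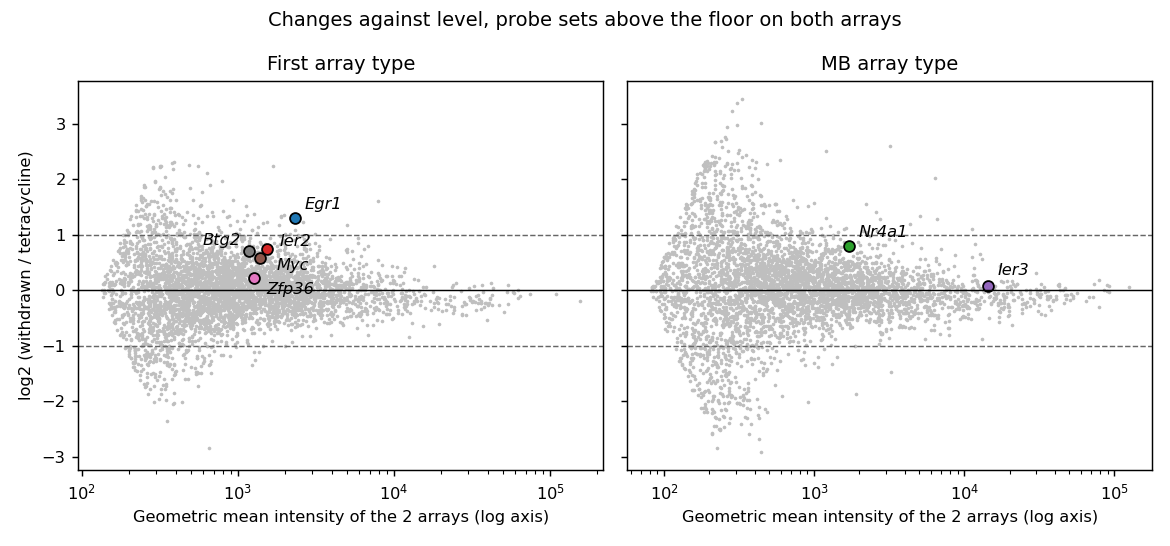
Change (log2 withdrawn over tetracycline) against the geometric mean intensity of the 2 arrays (log axis) for all measured probe sets of each array type in grey, with the 7 measured genes in colour and dashed lines at 2-fold. Egr1 lies above the 2-fold line, Nr4a1, Ier2, Btg2 and Myc lie between 0.59 and 0.80, and Zfp36 and Ier3 lie close to 0.

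Myc encodes the growth-promoting transcription factor that pairs with MAX, and its transcript is induced by serum and short-lived. It read 1133.6 and 1705, a 1.504-fold difference (0.59) that exceeded 1 local spread (0.36) but not 2. A change at least as large was seen in 12.2% of measured probe sets on its type and in 18 of the 200 nearest in level. Its partner Max had 1 probe set on each type, with 1322.6 and 1351.6 on the first (0.031) and 1384 and 1852.2 on the MB type (0.42). Of 8 measured genes of the MYC network besides Myc, 4 were higher and 4 lower, with a median of -0.084. The antagonist Mnt (586.7 and 440.2, -0.41) and the MAX-like factor Mlx (625.9 and 518.4, -0.27) were lower. Mycl (99 and 256) was the only 1 past 2-fold and was below the control floor on both arrays, as were Mycn (189.1 and 192.2), Mxd3 (158.9 and 114.8) and Mxd4 (161.7 and 141.7). Mxi1 read 273.6 and 295.

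Genes known to be induced by MYC did not, as a set, read higher along with Myc. Of 28 measured, 7 were higher, 21 lower and none past 2-fold, with a median of -0.20. The most abundant were Pkm, a glycolytic enzyme, at -0.22 and -0.16 on its 2 probe sets, and Ptma, encoding prothymosin alpha, at -0.46 (22951.6 to 16719.9). Bright probe sets as a class read slightly lower, with a median of -0.14 in the top 5% by level of the first type, and of -0.12 for the MB type. With that level trend removed the median was -0.14 with 22 of 28 lower. On the first type alone it was -0.078 and on the MB type alone -0.28. Odc1, the polyamine enzyme and a classical MYC target, read 1357.6 and 1604.7 (0.24) and was chosen after its values were seen. Ddx21, chosen likewise, had the largest change of the list, with 525.3 and 934.3 (0.83), which was larger than that of Myc.

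Zfp36 encodes tristetraprolin, which binds AU-rich elements and speeds the decay of the mRNAs that carry them. It read 1165.8 and 1367, a 1.17-fold difference (0.23) within its local spread of 0.39, and 70 of the 200 probe sets nearest in level had a change at least as large. The probe sets of its relative Zfp36l2 differed, with 1013.5 and 1045.3 on the first type (0.045) and 1666.2 and 804.9 on the MB type (-1.05). Zfp36l1 was dim with 142.2 and 137.5, below the control floor on both arrays. Of mRNAs known to be destabilised by tristetraprolin, 13 were measured, 9 higher and 4 lower, with a median of 0.12. These 13 include Ier3 and Myc, and 3 genes, Pim1 among them, that are also in the list of other serum immediate early genes. Over the 8 that are in neither group, 5 were higher, with a median of 0.17. Of these 8, 0 were higher by 2-fold and 1 was lower by 2-fold. Pim1, a kinase induced by cytokines, was higher by 2.07-fold (1538.4 to 3184.3) and Nos2 lower (357.8 to 133.3, -1.42, below the control floor after withdrawal).

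Btg2 encodes an antiproliferative protein that recruits the CCR4-NOT deadenylase and is a p53 target as well as an immediate early gene. It read 923.5 and 1519.9, a 1.65-fold difference (0.72), above 1 local spread (0.40) but not 2. Changes at least as large were seen in 8.84% of measured probe sets on its type and in 15 of the 200 nearest in level. Its relative Btg1 gave a similar, small difference on both array types, with 2529.6 and 3037.4 on the first (0.26) and 2310.1 and 2730.4 on the MB type (0.24). Btg3 read 711.8 and 1057 (0.57). Tob1, of the same family, was lower on both types (214 to 152.9, and 698 to 231), and the control floor was above at least 1 reading of each. Of 8 measured p53 targets, 5 were higher, 3 were lower, and Gadd45a, a growth arrest gene, was the only 1 past 2-fold (775.1 to 3678.1). Their median was 0.42, and -0.029 over the 6 that are not also in the list of serum immediate early genes.

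**Figure D3:**
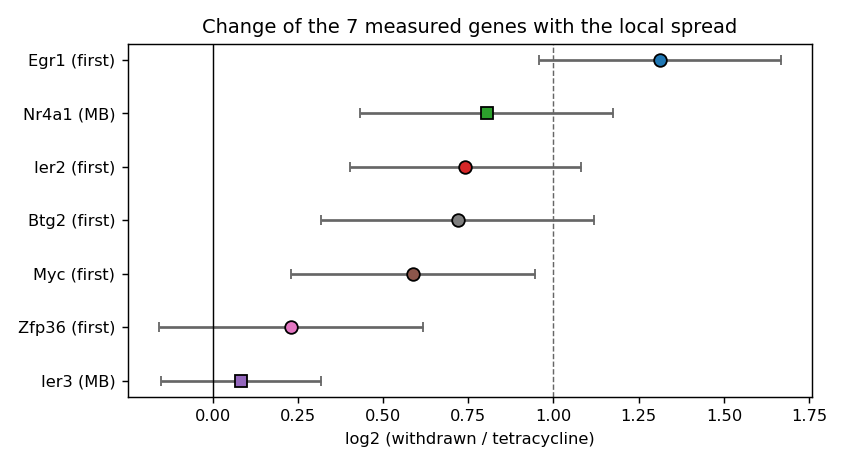
Change (log2 withdrawn over tetracycline) of the 7 measured genes, circles for the first array type and squares for the MB type, with bars of 1 local spread to each side and a dashed line at 2-fold. The bars of Zfp36 and Ier3 cross 0 and those of the other 5 do not.

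The 7 genes fall into an order from Egr1 through Nr4a1, Ier2, Btg2 and Myc to Zfp36 and Ier3. Neighbours in that order from Nr4a1 to Myc differed by less than the local spread of either. Changes exceeded the local spread in 5 of 7 genes and 2 local spreads in 3, Egr1, Nr4a1 and Ier2. How many of all measured probe sets do so was not counted, so these counts have no share beside them.

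Other serum immediate early genes were read beside these 8. Earlier results of these arrays had already shown such a list as high, so it is no independent support. Of 36 measured genes, 33 were higher and 8 past 2-fold, with a median of 0.66, and 0.53 at the control floor. Klf10 (504.1 to 2864.3, 2.51), the AP-1 subunit Junb (665.3 to 1903.8, 1.52) and the pluripotency-related factor Klf4 (492.1 to 1332.1, 1.44) had the largest changes above the control floor, and Klf2 read 135.6 and 419.4. Of the 36 measured genes, the 3 that read lower, named after their values were seen, were Ptgs2, Bhlhe40 and Ccn2. The cyclooxygenase gene Ptgs2 had a gene value of -0.50 from probe sets that differed, with 2637.1 and 2748.5 on the first type (0.060) and a dim 289.9 and 138.2 on the MB type (-1.07). Bhlhe40, a transcriptional repressor, read 998.6 and 975.7 (-0.033), and Ccn2, a matricellular protein gene, 9771.9 and 9630.1 (-0.021). By array type the median of the list was 0.68 (first) and 0.40 (MB). Fos, the AP-1 subunit with the best known serum response, was dim on both its probe sets, at 34.8 and 202.5 and at 31.8 and 67.7, all below the control floor. Genes above the floor on 1 array only are not among the 36. Of these, Skil read 67.7 and 767.7 and Dusp2 read 282 and 103.7, both named after their values were seen.

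The machinery of the serum response was nearly even. Of 8 measured genes for serum response factor partners, ERK-pathway kinases and CREB factors, 4 were higher and 4 lower, with a median of -0.032. By gene value Rps6ka3, an ERK-activated kinase, had the largest difference (577.2 to 375.7, -0.62). The 2 probe sets of Creb1 on the MB type differed. They read 497.9 and 846.6 (0.77, above the control floor on both arrays) and 229 and 186.7 (-0.29, below it on both). The ETS partner Elk3 read 730 and 494.6 (-0.56), and Mrtfa, the actin-regulated coactivator of serum response factor, 1030.4 and 1347 (0.39). Creb1, Elk3 and Mrtfa were chosen after their values were seen. Of 18 measured cytoskeletal targets of serum response factor 5 were higher and 13 lower, none past 2-fold, with a median of -0.19. Among the most abundant, Acta2 (smooth muscle actin) read 37840.4 and 28038.9 (-0.43), and Actg1 (cytoplasmic gamma actin) was lower on both its probe sets (-0.23 and -0.16). With the level trend removed the median of these targets was -0.13.

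Delayed early serum genes, which follow the immediate early wave, showed no shared direction. Of 26 measured, 10 were higher and 16 lower, none past 2-fold, with a median of -0.11, and -0.075 with the level trend removed. The most abundant were Timp1, a protease inhibitor (39761.4 to 29387.9, -0.44), and the growth factor-induced proliferin Prl2c2 (24495.8 to 19095.4, -0.36). The G1 cyclin gene Ccnd1 read 4234.8 and 3865.6 (-0.13) and was chosen after its values were seen. Mmp3, below the floor with tetracycline and so not among the 26, read 17.8 and 405.6 and was chosen likewise. Growth arrest genes that serum lowers had 8 of 18 higher and 10 lower, with a median of -0.079 that was 0.22 on the MB type alone. Of these, 3 were lower by 2-fold, Pdcd4, a translation inhibitor (974.3 to 349.3, -1.48), Gas1 (5407.3 to 1964, -1.46) and the pocket protein gene Rbl2 (515.5 to 249.8, -1.05, below the control floor after withdrawal). Gas5, a growth arrest transcript and snoRNA host, was higher on both its probe sets (0.60 and 0.66) and was chosen after its values were seen.

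Genes tied to PKR by other routes gave the following values. Their lists too were chosen with earlier results of these arrays known and are no independent support. Eif2ak2 itself read 643.3 and 663.6 on its only probe set (0.045), which may not detect the transgene transcript, and the labels do not name the transgene's species. Of 19 measured genes of the integrated stress response, which follows eIF2 alpha phosphorylation, 15 were higher and 6 past 2-fold, with a median of 0.70. That median was 0.41 over the 13 genes of the first type alone and 0.84 over the 6 of the MB type. Gadd45a (2.25), the pseudokinase gene Trib3 (2.11), the eIF2 alpha phosphatase subunit gene Ppp1r15a (1.55) and Herpud1 (1.25) led them. The 4 that read lower, named after their values were seen, were Shmt2 (-0.57), Psat1 (-0.29), Phgdh (-0.10) and Xpot (-0.087). Of 23 measured NF-kB targets and feedback inhibitors, 19 were higher, 7 were past 2-fold higher and 2 lower, with a median of 0.41. By array type the median was 0.38 (first) and 0.74 (MB). At the control floor 18 were measured, 17 higher, 5 of them past 2-fold and none lower by 2-fold, with a median of 0.39. Of the 23, 3 are also in the list of other serum immediate early genes, Junb among them. Over the 20 that are not, 17 were higher, 6 past 2-fold higher and 2 past 2-fold lower, with a median of 0.40. Gadd45b, a stress-induced gene, read 3163.1 and 12825.6 (2.02). Nfkbib, an NF-kB inhibitor (165.3 and 584.3), Birc2, an inhibitor of apoptosis (220.3 and 616.4), and the adhesion gene Icam1 (235.3 and 98.9, lower) were below the control floor on at least one array, as was Nos2. Ier3 and Zfp36, which can also be induced by NF-kB, had changes of 0.084 and 0.23. The part that each route had in the values of the 8 genes was not tested.

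**Figure D4:**
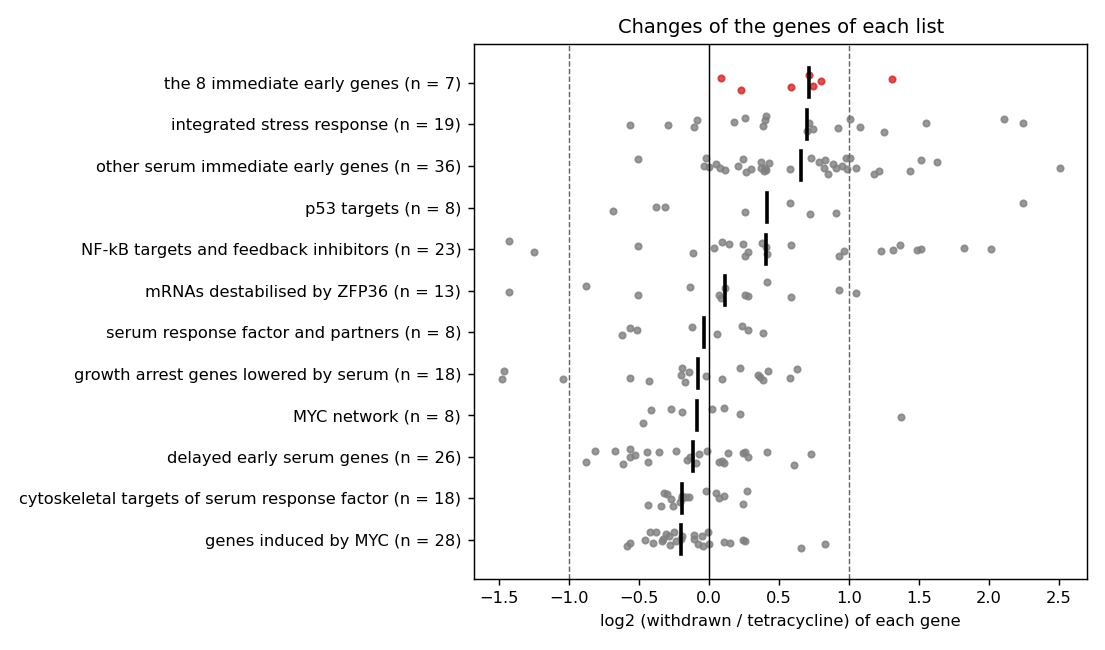
Change (log2 withdrawn over tetracycline) of each measured gene, 1 point per gene, for the 8 immediate early genes in red and for other lists with at least 8 measured genes in grey, with black bars at the medians and dashed lines at 2-fold. The medians of the 8 genes (0.72), the integrated stress response (0.70, or 0.41 on the first type alone) and the other serum immediate early genes (0.66) lie above 0, while those of delayed early genes (-0.11), cytoskeletal targets (-0.19) and MYC-induced genes (-0.20) lie below it. The 8 genes and all lists were chosen with earlier results of these arrays known.

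RNA integrity, read as the 3′ over the 5′ control probe set, gave ratios of 0.93 to 1.05 on the 4 arrays with beta-actin and of 0.71 to 0.83 with Gapdh. Fibroblast markers were abundant on all 4 arrays, with summed intensities of 70062.6 and 54332.7 on the first type (7 genes) and of 194478 and 158130 on the MB type (10 genes) with tetracycline and after withdrawal. Of 13 measured fibroblast markers 3 were higher and 10 lower, with a median of -0.36. Leukocyte markers summed to 3604 and 3368.3 on the first type (9 genes) and to 3298.4 and 3506.8 on the MB type (3 genes). Of 7 measured, 6 were higher, with a median of 0.38, and both past 2-fold, Coro1a (151.9 and 348.4) and Fcgr3 (240.8 and 505.6), were below the control floor with tetracycline. The pan-leukocyte gene Ptprc read 710.1 and 363.9 and was the only 1 lower. Epithelial markers had summed intensities of 2028.2 and 1798.6 on the first type and of 363.1 and 520 on the MB type. Endothelial markers summed to 383.3 and 241.9 and to 1918.1 and 2295.1, and muscle markers to 2706.2 and 2323.3 and to 4973.5 and 5112, in the same order. The epithelial keratin gene Krt18, the endothelial cadherin gene Cdh5 and the macrophage genes Adgre1 and Csf1r were below the floor on both arrays. Other markers of these types were above the control floor on both arrays. They were 2 epithelial genes (Krt8 and Cldn4), 1 endothelial gene (Eng), 5 leukocyte genes and 4 muscle genes. The part of other cell types in the values of the 8 genes was not tested. In bulk RNA a different number of cells of a type and a different amount of RNA per cell cannot be told apart.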

How the data were processed

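Total RNA of 2 conditions was measured on 4 arrays of 2 types, 1 per condition and type. The authors deposited 1 linear intensity per probe set and array. Probe set names follow the Affymetrix scheme. How these intensities were scanned and scaled is not given in the sources used here. The 2% trimmed means of the 2 arrays of a type were nearly equal (first type 999.9 and 1000.4, MB type 994 and 995), so the deposited intensities were used unscaled. Control probe sets, 61 per type, were left out. Names came from the platform annotation, updated through Entrez identifiers to RefSeq (GRCm38.p6). Probe sets with 1, several or no symbols numbered 5541, 197 and 785 (first type) or 2001, 27 and 4506 (MB type). The files name no genome build.

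The value of a gene is the median over all its measured probe sets. A gene with no measured probe set has no value and is left out of the list counts. With 1 array per condition and type no test across samples was possible, and changes are described by floors, local spreads and counts. The 8 genes and the 16 gene lists beside them were chosen with earlier results of these data known. The rule for named genes took the 8 genes, the measured genes of their relatives' lists, genes of the serum response factor list past 1.5-fold, and of other lists up to 4 genes per direction past 2-fold, or the 2 most abundant where none was. Markers of other cell types are named in part, and genes outside the rule are marked as chosen after their values were seen. Alternatives were 3 scalings, 4 floors, 2 fold limits, the brightest probe set per gene, each type alone and a pseudocount of 100. Removing the level trend from list medians, and list medians on each type alone, were added after the data were examined. Recovery of a set change and of the local spread was tested on simulated arrays. Loess came from statsmodels 0.14.6, figures from matplotlib 3.10.9 and the rest from pandas 2.3.3 and numpy 2.4.6 under Python 3.11.15.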

Additional observations from a re-analysis of the deposited data

How the results depend on the processing

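Each of the 7 measured genes kept its upward direction in all 10 alternatives that gave it a change, with ranges of 1.26 to 1.31 for Egr1, 0.76 to 0.80 for Nr4a1, 0.69 to 0.74 for Ier2, 0.66 to 0.72 for Btg2, 0.54 to 0.59 for Myc, 0.15 to 0.23 for Zfp36 and 0.083 to 0.18 for Ier3. Only the 3 scalings and the pseudocount could alter these values. The other alternatives had to return the reported value, because each gene has 1 probe set that lies above every floor. Each rests on 1 array per condition, so these ranges say nothing of replicate error. The count of the 8 genes past 2-fold, 1 as reported, was 2 with the lower floor and 2 with no floor, where Egr2 entered with a log2 change of 3.19. It was 0 on the MB type alone, 5 at a 1.5-fold limit and 0 at a 3-fold limit. The median of the 8 genes was 0.44 on the MB type alone, which rests on Nr4a1 and Ier3. Probe sets past 2-fold numbered 369 (first type) and 659 (MB type) as reported, and 113 and 75 at the control floor, which drops dim probe sets. NF-kB targets past 2-fold in either direction were 9 as reported and 5 there. Medians turned sign under at least 1 alternative for the growth arrest, serum response factor partner, EGR and MYC network lists, and for the BTG and TOB list on the first type alone. No paired analysis was possible because the groups have 1 array each.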
